A study of Mus musculus with 9 samples.

Results

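The small RNA content of mouse serum was described from the 3 libraries, of 9 in the series, whose label answers No to the depletion of tRNA fragments. The donors were healthy male and female mice of strain 129/SVj, aged 2 to 9 months, sedated with tribromoethanol before blood was drawn from the heart. Clotted blood was spun at low and then at high speed, to remove cells and their debris, and RNA was isolated from 200 µl of serum. The labels name the libraries as serum pools A, B and C, which serve as the 3 replicates below. The protocol text instead describes aliquots of a pool made from 3 mice, so the spread between replicates may be technical only, and no value can be traced to a single animal. A share of serum RNA cannot tell apart how many cells released an RNA and how much each cell released.

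Transfer RNAs (tRNAs) carry amino acids to the ribosome. Under stress they are cut in the anticodon loop, and the resulting 5′ fragments circulate in blood. MicroRNAs (miRNAs) are short RNAs that guide silencing proteins to messenger RNAs, mainly through the seed, the bases near the 5′ end. Ribosomal RNA (rRNA), small nuclear RNA (snRNA) and small nucleolar RNA (snoRNA) leave shorter fragments in such libraries. snRNA is part of the splicing machinery, and snoRNA guides the modification of rRNA. piRNA is a class of small RNAs bound by Piwi proteins of the germ line.

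The most abundant miRNA in all 3 pools was miR-16-5p (miRBase identifier MIMAT0000527), a member of a family known for restraining the cell cycle. Its mature sequence is shown because it alone could be tied to a name. The files identify miRNAs by miRBase number and do not pair the numbers with names. The study's text gives the name of this single entry. The seed (bases 2 to 8) is in capitals, and the closest relative with the same seed in the RefSeq table (GRCm38.p6) is shown beside it:
mmu-miR-16-5p: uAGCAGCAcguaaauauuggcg
mmu-miR-195a-5p: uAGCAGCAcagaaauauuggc
The seed occurs in 10 of the 1679 mature names of that table. The relative differs from miR-16-5p at 3 positions, counting the missing last base, and the other 8 names with this seed differ at 6 or more. Reads were mapped without mismatches.

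The mature sequence is cut from 2 hairpins, printed here with the mature part in capitals because a count of miR-16-5p cannot be divided between them:
Mir16-1: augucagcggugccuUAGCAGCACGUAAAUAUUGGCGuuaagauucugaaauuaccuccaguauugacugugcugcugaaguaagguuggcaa
Mir16-2: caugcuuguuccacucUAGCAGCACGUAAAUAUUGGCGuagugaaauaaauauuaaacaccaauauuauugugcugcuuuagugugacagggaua
Mir16-1 lies on the minus strand at chr14:61631880-61631972 (GRCm38.p6) inside Dleu2, a non-coding host gene on the same strand. In GENCODE 8 Dleu2 transcripts span the hairpin and 1 Dleu2 exon overlaps it. Whether that exon belongs to a spanning transcript was not checked. Mir16-2 lies on the plus strand at chr3:69009902-69009996 inside the protein-coding gene Smc4, and all 5 spanning transcripts have an intron there. The mature part occupies bases 16 to 37 of the Mir16-1 hairpin and bases 17 to 38 of the Mir16-2 hairpin.

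The libraries held 4167054 (pool A), 4920457 (pool B) and 3904095 (pool C) annotated counts, of which 205185, 330676 and 248696 were miRNA counts. At this depth, 3 counts were 6.10e-05% to 7.68e-05% of a library and 0.000907% to 0.00146% of its miRNA counts. This is the smallest share taken as detectable. The numbers of miRNAs seen, given below, start instead from 1 count. Intervals and these limits cover counting error only, since the reads were amplified by PCR without molecular identifiers.

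Among the annotated counts, which leave out reads that appear in neither file, tRNA fragments were by far the largest class. tRNA took 94.9% of the annotated counts in pool A (Wilson 95% interval 94.88% to 94.92%), 93.1% in pool B (93.07% to 93.11%) and 93.5% in pool C (93.43% to 93.48%). miRNA was the next class, with 4.92% in pool A (4.90% to 4.94%), 6.72% in pool B (6.70% to 6.74%) and 6.37% in pool C (6.35% to 6.39%). For every miRNA count there were 19.3, 13.9 and 14.7 tRNA counts in pools A, B and C, a mean of 15.9 ± 2.92 (SD, n = 3). Pool A thus had the highest tRNA and the lowest miRNA share, and the intervals of the pools did not overlap. The 3 other named classes that followed piRNA were each below 0.07% in every pool.

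**Figure D1:**
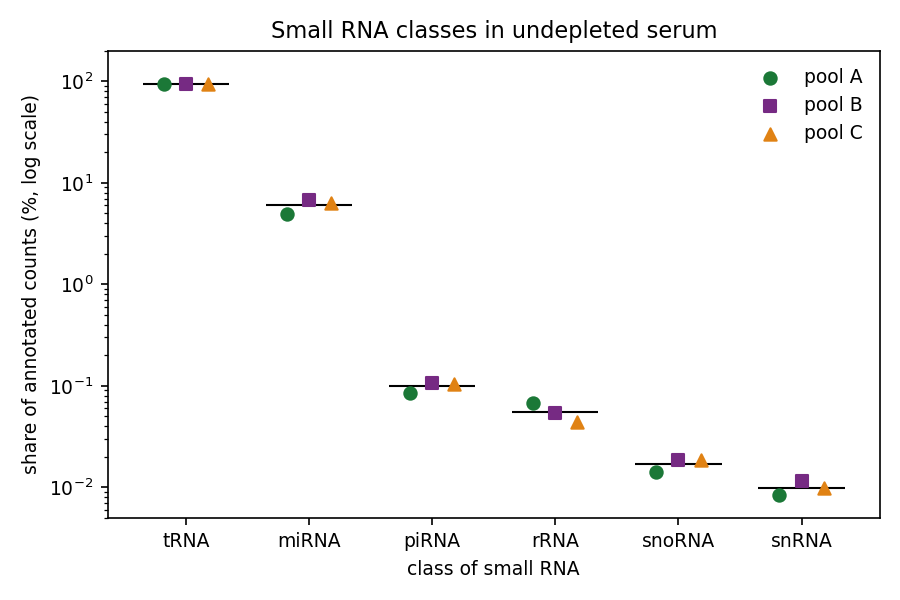
Share of annotated counts (%, log axis) taken by each class of small RNA. Each point is a serum pool and the bar is the mean of the 3 pools. tRNA lies near 94%, miRNA between 4.92% and 6.72%, and piRNA, rRNA, snoRNA and snRNA between 0.00838% and 0.107%.

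The minor classes kept their order in all 3 pools. piRNA made up 0.0847%, 0.107% and 0.104% of the counts in pools A, B and C, a mean of 0.0987% ± 0.0122 (SD, n = 3). rRNA made up 0.0680%, 0.0542% and 0.0442%. snoRNA followed at 0.0142%, 0.0185% and 0.0186%, and snRNA at 0.00838%, 0.0114% and 0.00994%. piRNA, snoRNA and snRNA were lowest in pool A, as miRNA was, whereas rRNA was highest there. For every 1000 miRNA counts, piRNA had 16.5 ± 0.648, snoRNA 2.86 ± 0.0890 and snRNA 1.65 ± 0.0809 counts (SD, n = 3), and each differed less between pools on this scale than as a share of all counts. rRNA had 13.8 counts for every 1000 miRNA counts in pool A against 8.07 in pool B and 6.93 in pool C.

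A few sequences held much of the rRNA. The 4 most abundant rRNA sequences of a library had 1845, 1482 and 881 counts in pools A, B and C, which was 65.1%, 55.5% and 51.1% of all rRNA counts. Without them, rRNA made up 0.0237%, 0.0241% and 0.0216% of the annotated counts. For every 1000 miRNA counts, the remaining rRNA had 4.82, 3.59 and 3.39 counts. After the removal pool B was thus the highest as a share of annotated counts and pool A the highest relative to miRNA. The 4 sequences are the most abundant of each library, chosen by their counts, and need not be the same sequences in each pool. Which rRNA they come from is not given, and their part in the difference between pools was not tested.

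The tRNA class was concentrated in very few distinct read sequences. The most abundant tRNA sequence had 1732014 counts in pool A, 2034914 in pool B and 1615534 in pool C. This was 43.8%, 44.4% and 44.3% of the tRNA counts (mean 44.2% ± 0.329, SD, n = 3) and 41.4% ± 0.114 of all annotated counts. The leading place of the class thus held about as large a share in each pool. The sequences in places 2, 3 and 4 of the class held 11.0% ± 0.488, 9.09% ± 0.241 and 8.72% ± 0.276 of the tRNA counts (SD, n = 3). Together the 4 most abundant sequences held 73.1%, 72.7% and 73.1% of the class in pools A, B and C.

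After these the shares dropped. Place 5 held 3.65% ± 0.0722, place 10 held 0.920% ± 0.00336 and place 12 held 0.796% ± 0.0139 of the tRNA counts (SD, n = 3). In each pool 2 sequences made up 50% of the class, 19 made up 90% and between 218 and 241 made up 99%. The remaining diversity was large in number and small in counts. Between 4577 and 5070 distinct tRNA sequences were listed per pool, of which 40.1% to 41.1% had a single count, and these single counts added up to 0.0455% to 0.0503% of the class. The files give a rank and no sequence, so it is not known whether the same place holds the same sequence in each pool, nor which tRNA it comes from.

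**Figure D2:**
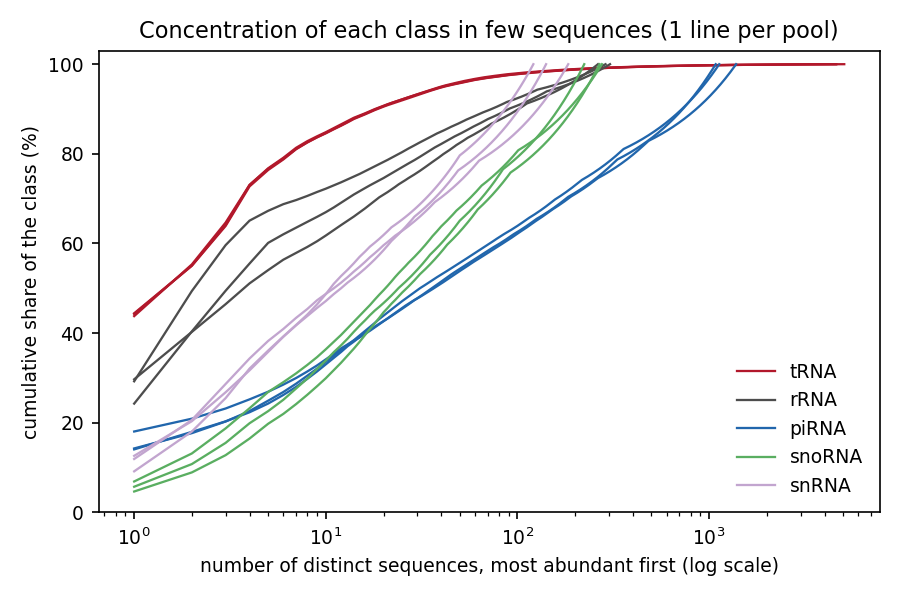
Cumulative share of the counts of a class (%) against the number of distinct sequences, most abundant first (log axis), with a line for each pool. The tRNA lines start at 43.8% to 44.4% with the most abundant sequence and pass 90% at 19 sequences, while the piRNA, snoRNA and snRNA lines rise slowly, and the lines of the pools lie close together for tRNA.

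The listed counts of the other classes were spread over far more of their sequences. These classes had mean counts of 433 (snRNA) to 4289 (piRNA) per pool, against 4061140 for tRNA. No comparison at equal depth was made, and the part of depth in the contrast with tRNA was not tested. The most abundant sequence held 14.1% to 18.1% of piRNA counts, 24.3% to 29.7% of rRNA counts, 9.17% to 12.6% of snRNA counts and 4.67% to 6.91% of snoRNA counts. To reach 90% of the class took 722 to 857 piRNA sequences of 1082 to 1383, 74 to 102 rRNA sequences of 263 to 304, 164 to 196 snoRNA sequences of 223 to 276 and 87 to 128 snRNA sequences of 121 to 184. Sequences with a single count made up 65.3% to 69.5% of the distinct piRNA sequences and 17.2% to 21.3% of the piRNA counts. In these small classes much of the list therefore rested on single reads.

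The rank of a distinct sequence counts down from the most abundant sequence of its library, over sequences of every kind, and only those assigned to tRNA, piRNA, rRNA, snoRNA or snRNA are listed. A missing rank is a sequence that is counted as a miRNA or appears in neither file. In each pool 5 of the 10 most abundant sequences were listed, and all 5 were tRNA. Among the 100 most abundant, 46, 44 and 43 were listed in pools A, B and C, and again each of them was tRNA. Among the 1000 most abundant, tRNA made up 260 of 265, 264 of 270 and 270 of 274 listed sequences. The best placed rRNA sequence had rank 257, 372 and 368, the best placed piRNA sequence rank 306, 336 and 330, and no snoRNA or snRNA sequence had a better rank than 1732 in any pool.

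The layout of the leading ranks was alike. Ranks 1, 3, 4 and 5 were tRNA in all 3 pools and rank 2 was missing in all 3. Pools B and C also listed the same ranks for the next 5 tRNA sequences (9, 13, 14, 16 and 18), while pool A listed 8, 11, 12, 16 and 18. The sequence at rank 2 must have between 456188 and 1732014 counts in pool A, between 487154 and 2034914 in pool B and between 392499 and 1615534 in pool C. The lowest of these values are 16.2, 10.7 and 11.7 times the count of miR-16-5p, the largest count of any miRNA there, so this sequence was not counted as a miRNA and its reads are in neither file. By the same comparison 12, 9 and 11 missing ranks in pools A, B and C had more counts than any miRNA. All shares given here are shares of annotated counts, and these reads stand outside them. The lowest possible total of all reads was also used as the denominator. Counts listed as tRNA would then take at most 63.3% ± 1.39 and miRNA counts at most 4.04% ± 0.599 (SD, n = 3). That total takes in unmapped reads. What the sequences at missing ranks are is not known, so these values set no upper limit on tRNA fragments in serum.

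The miRNA profile was led by the same small set of miRNAs in each pool, in an order that was alike but not fixed. miR-16-5p had 28190 counts in pool A, 45427 in pool B and 33450 in pool C, or 13.74%, 13.74% and 13.45% of the miRNA counts (mean 13.6% ± 0.166, SD, n = 3). It ranked the highest of all miRNAs in every pool, and the Wilson 95% intervals of its share were 13.59% to 13.89%, 13.62% to 13.86% and 13.32% to 13.58%. Its share of all annotated counts was 0.819%, far below that of the most abundant tRNA sequence.

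MIMAT0000539 and MIMAT0000531 came next. MIMAT0000539 had 10.93%, 10.81% and 11.05% of the miRNA counts in pools A, B and C, and MIMAT0000531 had 10.47%, 11.11% and 11.15%. Their ranges overlapped, and their order was not the same in all pools. miR-16-5p exceeded MIMAT0000539 by a factor of 1.25 on average (log2 ratio within a pool 0.32 ± 0.033, SD, n = 3), and the ranges of their shares did not overlap. MIMAT0001632 was in place 4 in every pool, with 6.97%, 6.96% and 6.99%, and MIMAT0000531 exceeded it by a factor of 1.56 (log2 ratio 0.65 ± 0.050, SD, n = 3).

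Places 5 to 7 were held by MIMAT0000652 (5.36% ± 0.319), MIMAT0000221 (5.32% ± 0.243) and MIMAT0000208 (4.99% ± 0.165), whose neighbouring ranges overlapped (SD, n = 3). MIMAT0000652 was the lowest of these in pool A (5.03%) and the highest in pools B (5.40%) and C (5.66%). MIMAT0000154 followed at 3.81% ± 0.273, apart from both of its neighbours in every pool. MIMAT0000128 and MIMAT0000648 were level at 2.76% ± 0.256 and 2.76% ± 0.0167 (SD, n = 3), with MIMAT0000128 ahead in pool A only. MIMAT0000248 was in place 11 in all pools with 2.44% ± 0.263, and MIMAT0004825 in place 12 with 1.73% ± 0.0648.

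MIMAT0000515, MIMAT0000904, MIMAT0000540, MIMAT0000210, MIMAT0000530, MIMAT0000517, MIMAT0000126 and MIMAT0000152 filled places 13 to 20, with means from 1.57% down to 1.06%. The same 20 miRNAs were the 20 most abundant in each of the 3 pools, and no rank among them moved by more than 2 places. Of the 20 pairs of neighbours, counting the pair formed by places 20 and 21, 12 had the same order in all pools and 9 had shares whose ranges did not overlap. For 7 pairs the mean log2 ratio was below its SD. The order within these pairs, for example that of MIMAT0000539 over MIMAT0000531, is therefore not resolved by 3 pools.

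**Figure D3:**
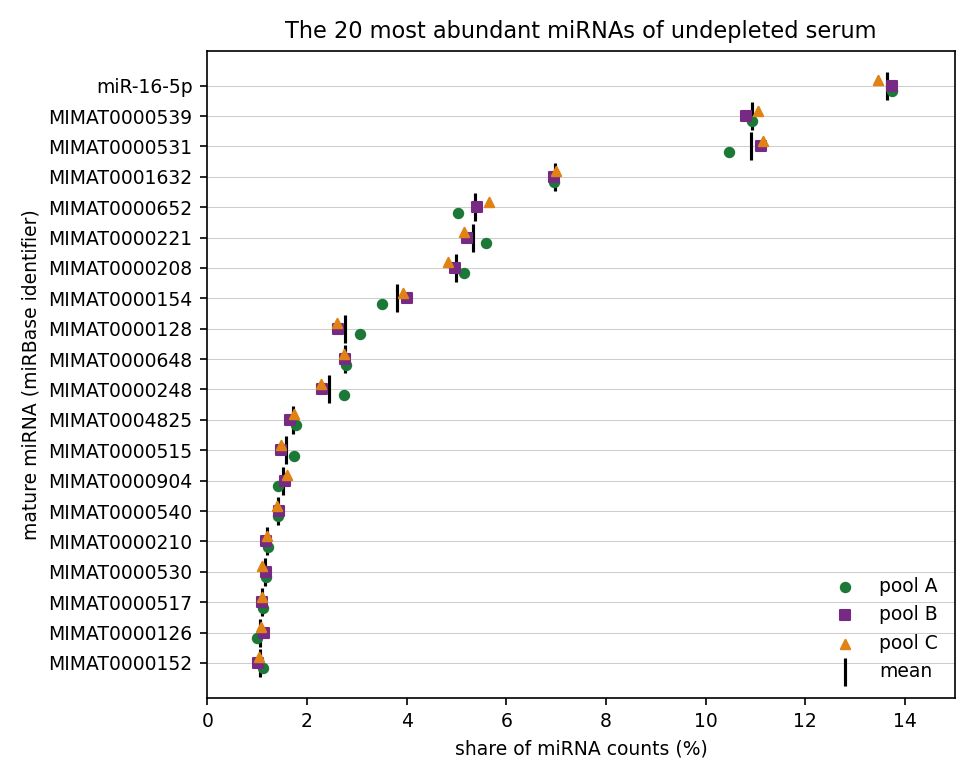
Share of miRNA counts (%) of the 20 most abundant mature miRNAs, by miRBase identifier, with a point for each pool and a tick for the mean. miR-16-5p stands alone at 13.45% to 13.74%, 2 miRNAs follow near 11%, and from place 13 on all means are at or below 1.57% and most neighbours overlap.

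A few miRNAs carried most of the miRNA counts, with almost the same concentration in each pool. The 3 most abundant held 35.5% ± 0.298, the 10 most abundant 67.5% ± 0.210 and the 20 most abundant 81.7% ± 0.199 of the miRNA counts (SD, n = 3). In every pool 6 miRNAs were enough for 50% of the miRNA counts and 33 for 90%, and 105 to 107 were needed for 99%. The effective number of miRNAs, the number of equally abundant miRNAs with the same Shannon entropy, was 30.3 ± 0.0300 (SD, n = 3). For distinct tRNA sequences it was 12.0 to 12.2. These numbers are not on the same scale, since the first is over mature miRNAs and the second over distinct read sequences. The miRNAs below place 100, between 304 and 344 of them in a pool, shared 1.14% ± 0.0142 of the miRNA counts (SD, n = 3).

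The number of mature miRNAs with at least 1 count was 404, 444 and 426 in pools A, B and C. Of these, 7, 8 and 7 had at least 10000 counts, 31, 37 and 35 at least 1000, 85, 95 and 91 at least 100, and 173, 206 and 184 at least 10. Single counts stood behind 101, 101 and 111 of them. The numbers followed the depth of the pools. Drawn down to the 205185 miRNA counts of pool A, pool B was expected to show 398.5 and pool C 405.3 miRNAs against 404 in pool A. At 50% of their own depth the pools were expected to show 338.9, 379.1 and 356.3 miRNAs, so the last 50% of the counts added 64.9 to 69.7 miRNAs. At 10% of their depth they were expected to show 216.9, 250.98 and 229.4. The number was still rising at the depth of these libraries.

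**Figure D4:**
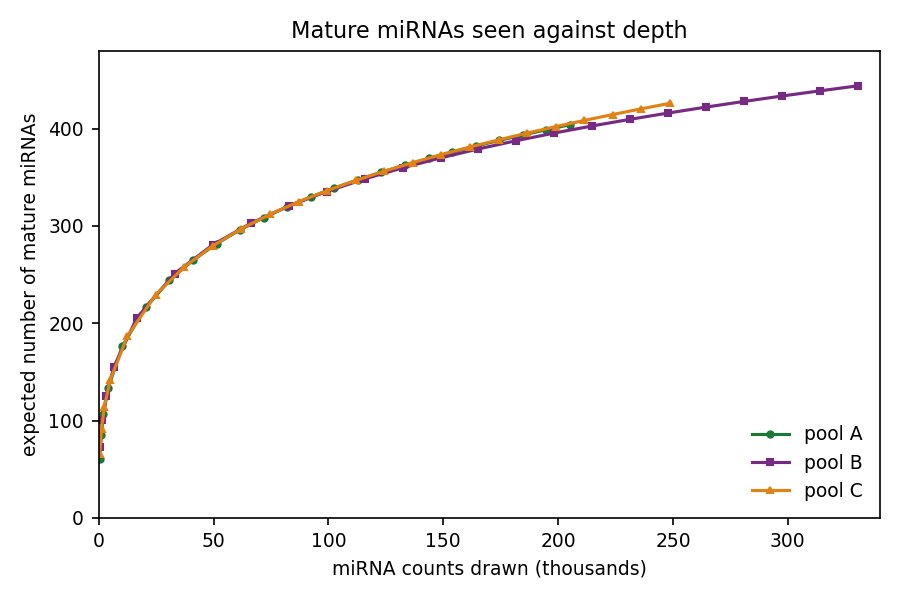
Expected number of mature miRNAs (y axis) when fewer of the miRNA counts of a pool are drawn (x axis, in units of 1000 counts), with a line for each pool. The lines of the 3 pools nearly coincide and are still rising where they end, at 404, 444 and 426 miRNAs.

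Across the pools 572 mature miRNAs were seen. Of these, 313 (54.7%) had a count in all 3 pools and held 99.93% of the miRNA counts. A further 76 were seen in 2 pools and 183 in a single pool. The miRNAs seen in a single pool had at most 4 counts there and a median of 1, and those seen in 2 pools had at most 7. MIMAT0000571 (4 counts, pool B) and MIMAT0022987 (4 counts, pool A) had the highest counts among those of a single pool. With 3 counts as the limit, an absence from the other pools was not detectable as a difference for most of them. Pool B, the deepest library, had 73 miRNAs of its own, pool C 63 and pool A 47.

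The spread between pools followed the depth behind each miRNA. The 35 miRNAs with a mean of at least 1000 counts held 91.2% of the miRNA counts. Their shares had a median coefficient of variation (CV, the SD as a percent of the mean) of 4.41%. The counting error, the SD expected of a count as a percent of its mean, had a median of 1.86%, and the ratio was 2.37. Over the 57 miRNAs with a mean of 100 to 1000 counts it was 6.94%, against 6.36% from counting. Over the 94 miRNAs with a mean of 10 to 100 counts it was 16.9%, against 20.6% from counting. An SD from so few pools falls below the expected SD more often than above it. With counting error alone, the measured medians would thus tend to lie below these counting values. The medians at a mean of 100 counts or more lay above them, so the comparison tends to understate that excess. At a mean of 10 to 100 counts the median lay below, and this comparison cannot show whether the pools differed beyond counting error. The biological coefficient of variation that edgeR estimated with counting error removed was 5.43% for the 92 miRNAs with a mean of at least 100 counts.

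**Figure D5:**
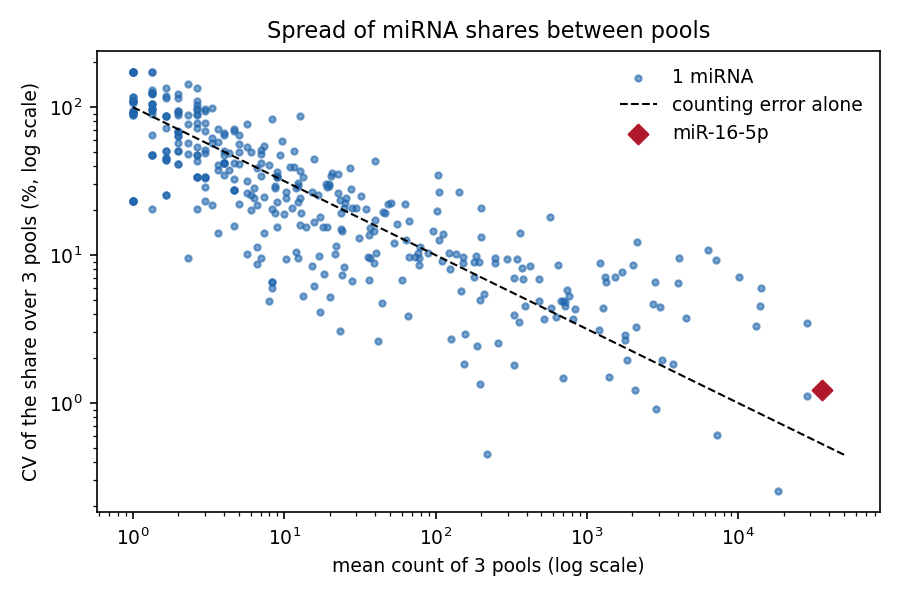
Coefficient of variation of the share over the 3 pools (%, log axis) against the mean count (log axis), with a point for each mature miRNA and the counting error alone as a dashed line. Points scatter around the line up to a mean of about 100 counts and lie mostly above it from 1000 counts on. A CV from so few pools tends to fall below the line when only counting error is present. miR-16-5p is the diamond at a mean of 35689 counts and a CV of 1.22%.

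Some abundant miRNAs had almost the same share in each pool. Among the 92 miRNAs with a mean of at least 100 counts, 78 had a CV below 10%, and MIMAT0001632 had the lowest (0.253%). It was picked as the lowest of 92. The SD of its share rose from 0.0176 to 0.0428 with TMM and to 0.0449 with DESeq2 size factors. Which miRNA varied least was therefore not settled. miR-16-5p had a CV of 1.22%, and over the 20 most abundant the CV ran from 0.253% to 10.8% with a median of 4.12%. MIMAT0000248 was the most variable of these 20, with 2.74% in pool A against 2.29% in pool B and 2.27% in pool C.

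The 5 most variable of the 92 were all near the lower end of that range of counts. MIMAT0003475 had 65, 107 and 139 counts in pools A, B and C, or 0.0317%, 0.0324% and 0.0559% of the miRNA counts, a CV of 34.5%. Pool C was high and the other two were level. MIMAT0004521 had 61, 127 and 126 counts (CV 26.6%), with the lowest share in pool A. MIMAT0000513 had 149, 171 and 109 counts (CV 26.5%) and MIMAT0000670 had 198, 232 and 167 (CV 20.7%), and both had their highest share in pool A. MIMAT0000124 had 61, 134 and 110 counts (CV 19.7%), with the lowest share in pool A. These 5 were chosen for their spread, so the values describe them and are no test.

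Among the most abundant miRNAs, pool A was more often apart from the other two than pools B or C were. With the counts of each pair of pools compared by chi-square, the statistic divided by its degrees of freedom was 3.96 between pools A and B, 4.27 between A and C, and 1.37 between B and C. A value of 1 is what independent counts would give. Reads copied by PCR are not independent, so these values describe the libraries and are no test of the pools. Over the 92 miRNAs with a mean of at least 100 counts, the median absolute log2 ratio of shares was 0.085 for A and B, 0.12 for A and C and 0.055 for B and C. Of the 20 most abundant miRNAs, 13 had pool A farther from the nearest other pool than the other two were from each other, 8 of them with a higher and 5 with a lower share in A, against 2 for pool B and 5 for pool C. Over all 92 miRNAs the numbers were closer, with 41 for pool A, 19 for pool B and 32 for pool C. Even so, 84, 76 and 87 of the 92 miRNAs had shares within 1.2-fold of each other in the pairs A and B, A and C, and B and C, and none of the 92 differed by more than 2-fold. The median CV of these 92 was 5.55% over all 3 pools. It was 2.71% without pool A, 5.88% without pool B and 4.17% without pool C. A CV of 2 pools tends to be lower than a CV of 3, so these values compare best with each other. Pool A also had the fewest miRNA counts, the highest tRNA share and the highest rRNA share, and the part of these in the miRNA differences was not tested.

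miRBase numbers are given in the order in which entries are added, so a low number marks an early entry. Early entries dominated the serum profile. The 163 detected miRNAs with a number below 1000 were 28.5% of the miRNAs seen and held 87.5%, 87.7% and 87.5% of the miRNA counts in pools A, B and C. They included 18 of the 20 most abundant. Of the 163, 141 (86.5%) were seen in all 3 pools, against 54.7% of all miRNAs seen. The median of their mean counts was 40. The 67 with a number from 1000 to below 4000 held 8.25% ± 0.0709 (SD, n = 3), most of it from MIMAT0001632. The 104 numbered from 4000 to below 5000 held 2.99% ± 0.0560, led by MIMAT0004825. The 28 numbered from 5000 to below 10000 held 0.174% ± 0.00779.

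The 210 entries numbered 10000 or above were the most numerous set, at 36.7% of the miRNAs seen, and held 1.03% ± 0.0381 of the miRNA counts (SD, n = 3). Of these entries, 56 (26.7%) were seen in all 3 pools, against 54.7% of all miRNAs seen. Presence in all pools was not separated from the low counts of this set. The most abundant, MIMAT0014943, was in place 38 with a mean of 757.0 counts, and the median of the set was 0.667 counts on average over the pools.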

How the data were processed

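Serum small RNA libraries (TruSeq kit, 15 PCR cycles, products of 125 to 153 bp selected) were sequenced by the authors, who trimmed adapters (Cutadapt 1.8.1 per the labels), dropped short, adapterless and low-quality reads, mapped the rest without mismatches (Bowtie 1.1.2, GRCm38), and assigned a class by position from miRBase, UCSC and Ensembl. The deposited values are raw counts, not normalized, in 2 files per library: per mature miRNA, and per distinct sequence of other classes with its rank. Modified, edited or erroneous reads are lost to exact mapping. Only the 3 undepleted libraries were used, so no test between groups was made.

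Shares were computed per library of the sum of both files (or of miRNA counts) and given as mean ± SD over pools, with Wilson 95% intervals (SciPy 1.17.1). Between 1 and 2 counts per library carried a mixed class and were kept in totals. Rarefied numbers are hypergeometric expectations. The biological CV came from edgeR 4.0.16 (R 4.3.3) with an intercept only and the miRNA sum as library size, after a check on simulated data. TMM and DESeq2 1.42.0 size factors served as alternatives.

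Named miRNAs are the 20 most abundant, the 5 most variable with a mean of at least 100 counts, and the leaders of sets by number. The number ranges and single examples were chosen after their values were seen. The libraries and lists were chosen with earlier results of these data known. Lists of tissue-typical miRNAs, seed families and arm ratios had been planned and are not analysed here, because identifiers are not paired with names, so the label of serum was not checked against such markers.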

Additional observations from a re-analysis of the deposited data

How the results depend on the processing

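No paired analysis was possible because the undepleted libraries form a single group. Of 189 alternative values for 33 results, 158 stayed within the spread between pools (or within 1.5 times, for counts and CVs) and 31 moved. Leaving out 1 of 3 pools cannot shift a mean by as much as 1 SD, so the shares judged by SD could not move. Their leave-one-out values are among the 158 and say nothing about how stable the shares are. Only counts and CVs could move, and 1 value did, the median CV of miRNA shares. It was 5.55% with all pools and ranged from 2.71% to 5.88%, the lowest without pool A. At a minimum mean of 10 counts the median CV was 9.51%, where counting error is larger. The lowest total that the ranks allow was an alternative chosen after seeing the data. With it, counts listed as tRNA took at most 63.3% and miRNA counts at most 4.04%. That total takes in unmapped reads. The 4 minor classes moved with it by construction. With at least 4 counts required, 257.0 miRNAs and 1839 tRNA sequences were detected per pool instead of 424.7 and 4755. As a share of all counts miR-16-5p was 0.819%, a change of denominator that moved all 20 of the most abundant miRNAs. TMM and DESeq2 size factors left the 40 mean shares they were applied to within 1 SD. Both scalings were close to the miRNA sums, so a mean could hardly move. The spread of a single miRNA between pools was not judged by this check. The tissue lists, seed families and arm ratios were not run. Depth limits the profile below a mean of about 100 counts.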
